A study of Mus musculus with 2 samples.

Results

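Plasma cells, the antibody-secreting end stage of the B lineage, were examined in 2 single-cell RNA sequencing libraries of mouse liver non-parenchymal cells. A barcode counted as a plasma cell when it held at least 5 UMIs of Jchain, the joining chain of polymeric IgA and IgM, and at least 2 of Mzb1, an endoplasmic reticulum co-chaperone of B lineage cells. It also had to hold no UMI of the B cell gene Ms4a1, the plasmacytoid dendritic cell gene Siglech or the T cell genes Cd3e, Cd3d and Cd3g. The rule found 89 plasma cells among 27814 kept barcodes, 20 in the Hep-ADKTg library and 69 in the Hep-ADKWT library.

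Hep-ADKTg mice overexpress adenosine kinase (Adk), the enzyme that turns adenosine into AMP, in hepatocytes from the albumin promoter. Hep-ADKWT mice were the genotype-matched controls. All animals were male, 5 months old and fed standard chow, with no other treatment named. Livers were digested with collagenase and the cells were captured with 10x Genomics droplet chemistry. The transgene acts in hepatocytes, so a difference in plasma cells is one between cells that were not themselves engineered. There was 1 library per genotype, and the labels do not settle whether it came from 1 mouse or several. Genotype, animal, digestion and library are therefore one division of the data and cannot be told apart. No difference has a replicate check, and every interval is a 95% interval that covers counting error only.

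Plasma cells arise from activated B cells under the transcription factors Irf4, Prdm1 (Blimp-1) and Xbp1. They shut down much of the B cell programme and expand the endoplasmic reticulum, where immunoglobulin chains are translocated, folded and assembled before secretion. IgA plasma cells are mostly generated in gut-associated tissue, and in mice and humans the liver receives blood, antigen and circulating lymphocytes from the gut through the portal vein. IgM plasma cells have not switched class, and IgG plasma cells dominate systemic responses.

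The Hep-ADKTg library held 17462 barcodes and the Hep-ADKWT library 15663, of which 14853 and 12961 were kept, with medians of 2812 and 4915 UMIs. Plasma cells were deeper than the average barcode. They held a median of 20742 UMIs in Hep-ADKTg (lowest 10171, highest 52195) and 20240 in Hep-ADKWT (lowest 2777, highest 70353), so depth per plasma cell overlapped almost completely between the libraries. Immunoglobulin genes fill much of these totals, and gene levels are given as CPM (counts per 1000000) of the UMIs outside immunoglobulin genes, of which there were 216881 over the Hep-ADKTg and 794624 over the Hep-ADKWT plasma cells. For a gene at the same CPM in both libraries, the precision is thus lower in Hep-ADKTg. Hepatocyte transcripts were more widespread in the Hep-ADKTg library, where 2811 kept barcodes had over 20% of their UMIs on a hepatocyte gene list, against 166 in Hep-ADKWT.

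The values that chose the cells were far from their limits in nearly all of them. Jchain had a median of 757 UMIs per cell in Hep-ADKTg (116 to 2322) and 613 in Hep-ADKWT (12 to 3416), and Mzb1 a median of 24 (6 to 125) and 45 (3 to 361). The second lowest Jchain value was 233 in Hep-ADKTg and 56 in Hep-ADKWT. Just outside the limits lay 0 Hep-ADKTg and 9 Hep-ADKWT barcodes with 1 to 4 Jchain UMIs, and 3 and 1 barcodes with 0 or 1 Mzb1 UMI. Few barcodes thus lay near these limits. The conditions on other lineages left out more. Of the 58 Hep-ADKTg and 324 Hep-ADKWT barcodes that passed both limits, 38 and 255 were left out because they held Ms4a1 (25 and 132 barcodes), Siglech (0 and 13) or a Cd3 gene (24 and 217). The left-out barcodes had medians of 22843.5 UMIs in Hep-ADKTg and 29835 in Hep-ADKWT, and at least 20 UMIs of T and NK cell genes were present in 26 of the 38 (68.4%) and 208 of the 255 (81.6%). Only 7 and 15 were left out by a single UMI. Whether they were 2 cells in 1 droplet, cells with free RNA or cells of mixed type was not tested, so results that rest on the choice of cells are also given for them.

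The label held against the markers the rule did not use. Xbp1, the transcription factor of the secretory programme, was detected in 20 of 20 Hep-ADKTg and 68 of 69 Hep-ADKWT cells, and Sdc1 (CD138, the classical surface marker of plasma cells) in 17 (85%) and 49 (71.0%). Sdc1 had a UMI in 6.46% and 2.0% of T cells, which had medians of 4562 and 6001 UMIs, against 25% and 26.9% of the plasma cells thinned to 1000 UMIs each, with 2 shallower Hep-ADKWT cells left out. Tnfrsf17, which encodes BCMA, the receptor for the survival factor APRIL, was seen in 15 (75%) Hep-ADKTg and 60 (87.0%) Hep-ADKWT cells, and in 25% and 41.8% after thinning. In T cells it was at 0 and 0.0872%. Irf4 was detected in 18 and 54 cells and Prdm1 in 14 and 49. Doublet scores above 0.2 were found for 0 Hep-ADKTg and 2 Hep-ADKWT plasma cells, beside 2.75% and 3.73% of all kept barcodes. Of the 58 and 324 barcodes that passed both limits, 0 and 9 had such a score. Few scores thus passed 0.2 even where genes of other lineages were present. No plasma cell barcode was shared between the libraries.

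Some plasma cell barcodes also carried RNA of other cells. At least 1 other cell type's marker list was rich (over 5% of the UMIs outside immunoglobulin genes for hepatocyte or haemoglobin genes, or at least 20 UMIs of T and NK cell, endothelial or macrophage genes) in 3 of 20 Hep-ADKTg and 9 of 69 Hep-ADKWT cells. In Hep-ADKTg these were an IgA cell of 52195 UMIs with 19.0% hepatocyte transcripts, an IgM cell with 6.36% and an IgM cell with 134 endothelial UMIs. In Hep-ADKWT 3 cells held 20.3% to 62.1% haemoglobin transcripts, 1 held 22.4% hepatocyte transcripts, 3 held 128 to 231 endothelial UMIs, 1 held 165 T and NK cell UMIs and 1 held 24 macrophage UMIs. The cell of 52195 UMIs held 42.2% of the UMIs outside immunoglobulin genes of all 8 Hep-ADKTg IgA cells, so ratios between the libraries within IgA cells are given with and without the 12 cells. The summed hepatocyte list stood at 58036 CPM in Hep-ADKTg and 22618 CPM in Hep-ADKWT plasma cells, and all 31 of its genes that were read were higher in Hep-ADKTg. In each library 1 cell held most of the hepatocyte list UMIs, 74.3% in Hep-ADKTg and 84.1% in Hep-ADKWT. The medians per cell were 124.5 and 22 UMIs. The erythroid list stood at 83.0 CPM in Hep-ADKTg and 30820 CPM in Hep-ADKWT, the latter mostly from the 3 haemoglobin-rich cells.

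Plasma cells were scarcer in the Hep-ADKTg library. They made up 0.135% of its kept barcodes (interval 0.0823 to 0.208%) and 0.532% of those of Hep-ADKWT (0.414 to 0.673%), a ratio of 0.253 (0.146 to 0.421). The intervals do not overlap. The gap depended on what the cells were counted against. Relative to barcodes with a UMI of Ptprc (CD45, the common leukocyte antigen), 12 of 5091 in Hep-ADKTg (0.236%) and 46 of 8835 in Hep-ADKWT (0.521%) were plasma cells, a ratio of 0.453, and the intervals, 0.122 to 0.411% and 0.381 to 0.694%, overlap slightly. Per 100 B cells there were 1.82 plasma cells in Hep-ADKTg and 3.68 in Hep-ADKWT, a ratio of 0.495. Without the conditions on other lineages the shares of kept barcodes were 0.390% (0.297 to 0.505%) in Hep-ADKTg and 2.50% (2.24 to 2.78%) in Hep-ADKWT, a ratio of 0.156. Each of these counts gave the lower value in Hep-ADKTg. Fewer plasma cells in the liver and fewer recovered from it cannot be told apart.

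The class of antibody differed between the libraries. The leading heavy chain constant gene was Igha (IgA; chromosome 12, 113254830 to 113260236, minus strand, GRCm38) in 8 of 20 Hep-ADKTg plasma cells (40.0%, 19.1 to 63.9%) and in 58 of 69 Hep-ADKWT cells (84.1%, 73.3 to 91.8%). It was Ighm (IgM; chromosome 12, 113418558 to 113422730, minus strand) in 10 Hep-ADKTg cells (50%, 27.2 to 72.8%) and in 4 Hep-ADKWT cells (5.80%, 1.60 to 14.2%). The intervals of neither class overlap between the libraries. IgG led in 2 Hep-ADKTg cells (10.0%, 1.23 to 31.7%), 1 of Ighg2b and 1 of Ighg2c, and in 7 Hep-ADKWT cells (10.1%, 4.18 to 19.8%), of which 2 were Ighg1, 3 Ighg2b and 2 Ighg2c. IgG shares were thus alike to within wide intervals, and no cell was led by Ighd, Ighe or Ighg3.

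Most plasma cells expressed a single class. The leading gene took a median of 99.99% of a cell's heavy chain constant UMIs in Hep-ADKTg and 99.8% in Hep-ADKWT, from medians of 2427.5 and 1833 such UMIs per cell. It took at least 99% in 18 of 20 and 50 of 69 cells. The lowest value in Hep-ADKTg was an IgM cell at 52.8%, and the lowest in Hep-ADKWT an IgA cell at 81.1%. Antibody RNA in T cell barcodes was itself unequal between the libraries, with Igha in 2.65% of Hep-ADKTg and 47.1% of Hep-ADKWT T cells and Ighm in 32.7% and 49.3%. Whether it was free RNA was not tested. The plasma cell with the fewest heavy chain UMIs held 420 in Hep-ADKTg and 131 in Hep-ADKWT.

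The same class pattern was present in the barcodes that the conditions on other lineages left out, which share no cell with the plasma cells above. Among the 38 left-out Hep-ADKTg barcodes 26.3% were IgA, 47.4% IgM and 26.3% IgG, against 78.8%, 5.49% and 15.3% of the 255 left-out Hep-ADKWT barcodes. Without the 12 cells rich in another type's transcripts, IgA cells were 7 of 17 (41.2%) in Hep-ADKTg and 50 of 60 (83.3%) in Hep-ADKWT, and IgM cells 8 (47.1%) and 4 (6.67%). In summed level, Igha stood at 39125 CPM of all UMIs in Hep-ADKTg and 85752 CPM in Hep-ADKWT plasma cells, and Ighm at 52172 and 7702 CPM. IgA thus led in Hep-ADKWT and IgM in Hep-ADKTg, in cells and in RNA. The lead of IgM among Hep-ADKTg plasma cells was 10 cells against 8, with overlapping intervals.

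**Figure D1:**
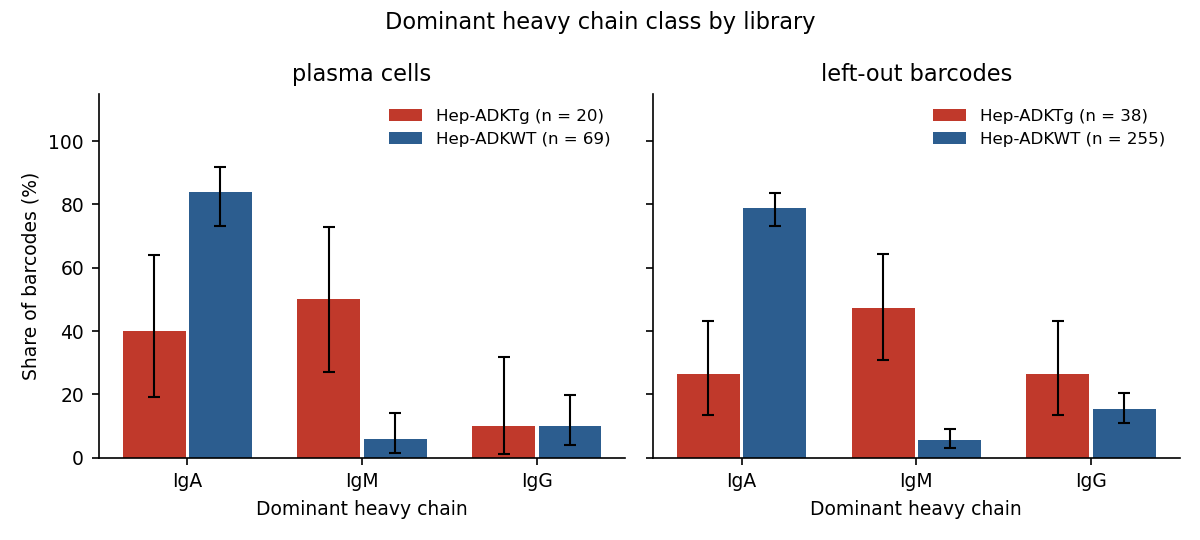
Share of plasma cells (left) and of the barcodes left out by the Ms4a1, Siglech and Cd3 conditions (right) whose leading heavy chain was IgA, IgM or IgG, in percent of the barcodes of each library, with exact 95% binomial intervals. IgA leads in Hep-ADKWT and IgM in Hep-ADKTg in both panels, while the IgG intervals overlap. Within the Hep-ADKTg plasma cells the IgA and IgM intervals overlap widely.

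Light chains were almost all kappa. Igkc (chromosome 6, 70726435 to 70726966, plus strand) led in 20 of 20 Hep-ADKTg and 66 of 69 Hep-ADKWT plasma cells, with medians of 7138.5 and 5257 UMIs per cell. The 3 lambda cells of Hep-ADKWT were 1 IgA, 1 IgM and 1 IgG cell. A count of 0 lambda cells among 20 allows a share of up to 16.8% by the exact interval, so no difference in lambda use was detectable at this number of cells.

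Variable gene use was broad. A heavy chain variable gene, called at 3 or more UMIs and at least 50% of the cell's variable UMIs, was found for 19 Hep-ADKTg plasma cells, which used 14 genes, and for 57 Hep-ADKWT cells, which used 31. Light chain variable genes were called in 18 Hep-ADKTg cells (16 genes) and 65 Hep-ADKWT cells (33 genes). Both chains were called in 17 and 55 cells, which held 15 and 50 distinct pairs. In Hep-ADKTg 1 pair recurred, Ighv1-72 with Igkv6-15, in 3 cells that were all IgM. In Hep-ADKWT 5 pairs recurred, each in 2 cells: Ighv1-39 with Igkv3-5, Ighv1-50 with Igkv3-12, Ighv5-17 with Igkv5-43 and Ighv9-3 with Igkv6-17 in IgA cells, and Ighv2-9 with Igkv3-4 in IgM cells. Among all barcodes that passed both plasma cell limits, the largest group was 6 Hep-ADKTg barcodes with Ighv1-5 and Igkv5-39, of which 4 were IgA and 2 IgG. Cells that share a pair share a class in each recurrent pair of the plasma cells. Most Hep-ADKWT plasma cells were IgA, so a shared class is frequent there whatever the pair. Among all barcodes that passed both limits, other recurrent pairs mixed classes too. Examples are Ighv1-64 with Igkv17-121 in Hep-ADKTg (IgA and IgG) and Ighv1-9 with Igkv12-46 in Hep-ADKWT (IgA and IgM). The junction sequences that would mark a clone were not analysed here, and variable genes of one family are similar enough for reads to be assigned to a relative.

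Immunoglobulin genes, Jchain included, made up 52.0% of all plasma cell UMIs in Hep-ADKTg and 48.2% in Hep-ADKWT. Per cell the share had a median of 58.0% in Hep-ADKTg (5.73 to 71.7%) and 52.1% in Hep-ADKWT (4.21 to 82.6%). It exceeded 50% in 14 of 20 and 35 of 69 cells and fell short of 20% in 2 and 7. The distributions overlap over almost their whole range. B cells of the same libraries gave 1.40% and 1.87%, and T cells 0.0268% and 0.0664%. By class, medians were 60.2% in Hep-ADKTg and 46.3% in Hep-ADKWT for IgA cells, 57.3% and 71.8% for IgM cells, and 57.8% and 63.7% for IgG cells. The 4 IgM cells of Hep-ADKWT lay between 68.7 and 73.6%.

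**Figure D2:**
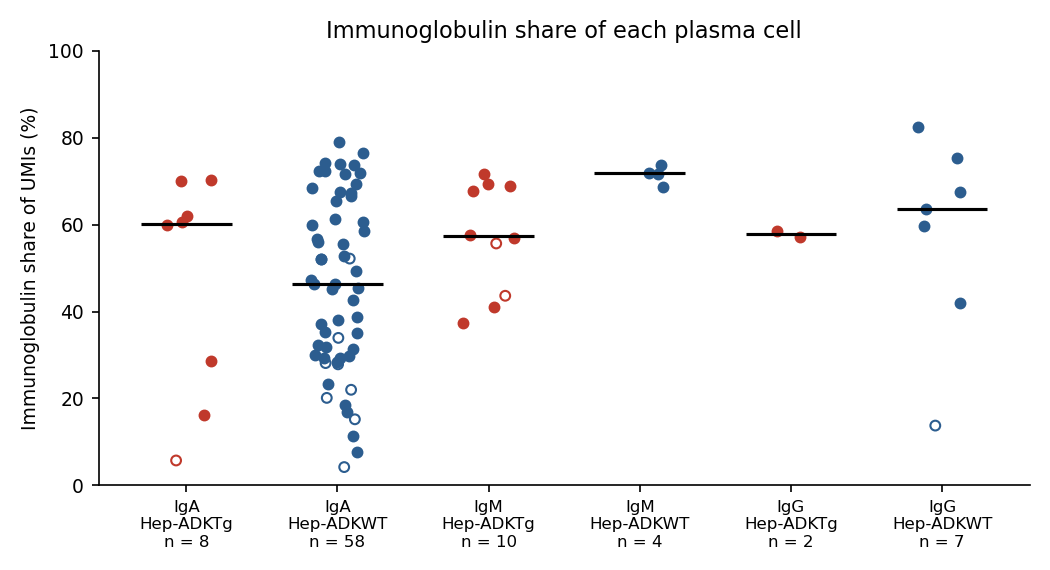
Immunoglobulin share of the UMIs of each plasma cell, in percent, by class and library, with 1 point per cell and a line at the median; open points are the 12 cells rich in another cell type's transcripts. The lowest shares, 5.73% in Hep-ADKTg and 4.21% in Hep-ADKWT, belong to such cells.

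Within a library the immunoglobulin share went with fewer other transcripts. Its Spearman correlation with the number of UMIs outside immunoglobulin genes was -0.30 over 20 Hep-ADKTg cells and -0.66 over 69 Hep-ADKWT cells. These quantities share a denominator, so a negative value follows in part from how the share is formed. The correlation with the summed level of endoplasmic reticulum chaperones was 0.03 and -0.07. The values describe cells of 1 library each and carry no test.

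Plasma cells were next set against the B cells of the same library, 1097 in Hep-ADKTg and 1874 in Hep-ADKWT. The plasma cells were chosen by their genes, so this is a description of what they express and no test. Among 4004 genes read, 605 (15.1%) were at least 2-fold higher than in B cells in both libraries and 205 (5.12%) at least 2-fold lower in both. That balance depends on scaling to UMIs outside immunoglobulin genes. As CPM of all UMIs, 245 genes were higher and 1190 lower, because antibody transcripts fill the total. It also depends on the limit of 30 UMIs per gene, which counted the plasma cells only. Genes nearly absent from plasma cells were thus not read. The ratios below are log2 of plasma cells over B cells, first for Hep-ADKTg and then for Hep-ADKWT.

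Of 12 plasma cell regulators, 9 were at least 2-fold higher than in B cells in both libraries and 1, Ikzf3, was lower. Xbp1 stood at 1983 CPM in Hep-ADKTg and 2610 CPM in Hep-ADKWT plasma cells, against 63.3 and 56.2 CPM in B cells (log2 ratios of 4.97 and 5.54). Prdm1, the repressor that ends the B cell programme, stood at 194 and 182 CPM, against 0.953 and 1.21 CPM in B cells. Both regulators were thus near absent from B cells or far lower there. Tent5c, which stabilises secretory mRNAs, was at 530 and 726 CPM (log2 ratios of 6.17 and 5.36), and Ell2, the elongation factor that favours the secreted form of heavy chain mRNA, at 231 and 362 CPM (3.30 and 4.02). Irf4 was higher by 2.26 and 2.44.

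Of 15 surface and survival receptors read, 10 were higher and 2 lower in both libraries. Tnfrsf17 (chromosome 16, 11313812 to 11320074, plus strand) was among the sharpest, at 314 CPM in Hep-ADKTg and 590 CPM in Hep-ADKWT plasma cells, against 0 and 0.670 CPM in B cells. Cd28, best known as a T cell costimulatory receptor and also a survival receptor of plasma cells, stood at 106 and 179 CPM, against 0.476 and 1.34 CPM in B cells. Slamf7 was at 309 and 273 CPM (3.97 and 3.43), Sdc1 at 180 and 196 CPM (2.86 and 4.37) and Epcam, an adhesion molecule of epithelia, at 129 and 141 CPM (4.28 and 5.13). The lower members were Tnfrsf13c, the BAFF receptor of mature B cells, with log2 ratios of -1.89 and -2.14, and Cd38 with -2.07 and -2.16. The receptor set was thus that of antibody-secreting cells in both genotypes.

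The secretory machinery was higher than in B cells almost throughout. In the list of endoplasmic reticulum chaperones and folding enzymes, 24 of 25 genes read were at least 2-fold higher in both libraries, with medians of 2.41 and 3.38, beside medians of 0.16 and 0.27 over all genes read. Ero1lb, an oxidase of the endoplasmic reticulum, missed the limit at 0.78 and 0.84. The list summed to 18600 CPM in Hep-ADKTg and 26368 CPM in Hep-ADKWT plasma cells, against 3091 and 2312 CPM in B cells. Hsp90b1 (GRP94) had 3984 and 6356 CPM, and Txndc5, a disulfide isomerase, 1817 and 2321 CPM. Hspa5 (BiP), which holds unassembled heavy chains, had 1462 and 2334 CPM, and Manf 1203 and 2197 CPM. The translocon, signal peptidase and glycosylation list had 22 of 27 genes higher (medians 2.32 and 2.78), with Sec11c at 2047 and 2936 CPM and Ssr4 at 2559 and 2629 CPM.

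Degradation and export of secretory proteins followed. Of 14 genes of endoplasmic reticulum-associated degradation, 12 were higher in both libraries (medians 2.46 and 2.72). Derl3, a channel component of that pathway, stood at 341 and 632 CPM, against 3.33 and 2.82 CPM in B cells. Edem1, which marks misfolded glycoproteins, stood at 673 and 1192 CPM (4.12 and 5.38). Of 19 genes of transport to the Golgi, 16 were higher (medians 1.71 and 2.32), among them the cargo receptor Lman1 at 452 and 695 CPM. All 4 secretory lists were shifted well beyond the median gene in both libraries.

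Chaperone promoters are shown because several of these genes carry the endoplasmic reticulum stress response element, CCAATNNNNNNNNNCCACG, whose known binding factors include the active forms of Atf6 and Xbp1. Both strands were searched in RefSeq promoters of GRCm38.p6, each 300 bases long and reaching 50 bases past the gene's start. The element was found in 8 of the 23 promoters matched from the chaperone list (34.8%), in 2 of 12 from the degradation list (16.7%, Derl3 and Syvn1), in 0 of 21 from the translocon list and in 0 of 15 from the Golgi transport list. Of all 27025 promoters 35 (0.130%) held it, and of the 3230 matched to genes read in plasma cells 10 (0.310%). A shorter motif, TGACGTGG, was in 1 of the 23 chaperone promoters (4.35%), in 2 of 15 from the Golgi transport list (13.3%), in 0 of 12 from the degradation list, in 0 of 21 from the translocon list and in 164 of all promoters (0.607%), and it overlaps the element in none of the sequences shown. The 4 promoters below are the chaperone genes with the most matches and then the highest plasma cell ratios. Capitals mark the CCAAT and CCACG ends of the element, or CGTGG and ATTGG where it lies on the other strand. Hsp90b1 (chr10:86705395-86705694, minus strand) holds 2 elements in opposite orientations, which start 212 and 107 bases before the gene's start. Creld2 (chr15:88819396-88819695, plus strand) holds 1 on the other strand, 126 bases before the start. Dnajc3 (chr14:118937682-118937981, plus strand) and Hspa5 (chr2:34771840-34772139, plus strand) hold 1 each in the gene's own direction, 105 and 65 bases before the start.
Hsp90b1: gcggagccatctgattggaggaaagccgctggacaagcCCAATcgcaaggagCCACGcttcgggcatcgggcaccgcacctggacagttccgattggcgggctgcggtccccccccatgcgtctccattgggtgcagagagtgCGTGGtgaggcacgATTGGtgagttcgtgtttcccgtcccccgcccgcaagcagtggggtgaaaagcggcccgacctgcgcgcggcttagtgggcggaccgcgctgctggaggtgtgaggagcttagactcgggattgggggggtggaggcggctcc
Creld2: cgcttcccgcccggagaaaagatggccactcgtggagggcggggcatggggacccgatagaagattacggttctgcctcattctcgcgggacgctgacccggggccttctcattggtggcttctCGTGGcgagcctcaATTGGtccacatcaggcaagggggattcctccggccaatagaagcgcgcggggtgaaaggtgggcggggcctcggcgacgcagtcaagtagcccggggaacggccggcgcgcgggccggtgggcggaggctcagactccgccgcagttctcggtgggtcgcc
Dnajc3: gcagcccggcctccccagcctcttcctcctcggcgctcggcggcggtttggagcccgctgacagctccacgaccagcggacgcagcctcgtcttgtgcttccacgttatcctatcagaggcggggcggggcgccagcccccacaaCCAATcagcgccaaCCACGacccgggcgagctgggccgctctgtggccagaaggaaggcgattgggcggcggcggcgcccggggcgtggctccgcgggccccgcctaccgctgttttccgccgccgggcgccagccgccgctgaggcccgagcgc
Hspa5: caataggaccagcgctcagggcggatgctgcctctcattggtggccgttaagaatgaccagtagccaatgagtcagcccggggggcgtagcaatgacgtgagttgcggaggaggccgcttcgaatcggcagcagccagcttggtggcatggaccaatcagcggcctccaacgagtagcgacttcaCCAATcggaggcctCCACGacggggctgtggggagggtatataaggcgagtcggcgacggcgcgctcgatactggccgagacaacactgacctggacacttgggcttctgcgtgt
In plasma cells over B cells, these genes had log2 ratios of 3.07 and 4.43 (Hsp90b1), 4.19 and 5.59 (Creld2), 2.52 and 3.72 (Dnajc3), and 2.14 and 3.38 (Hspa5). A match is a string of letters in a promoter and no evidence of binding in these cells.

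**Figure D3:**
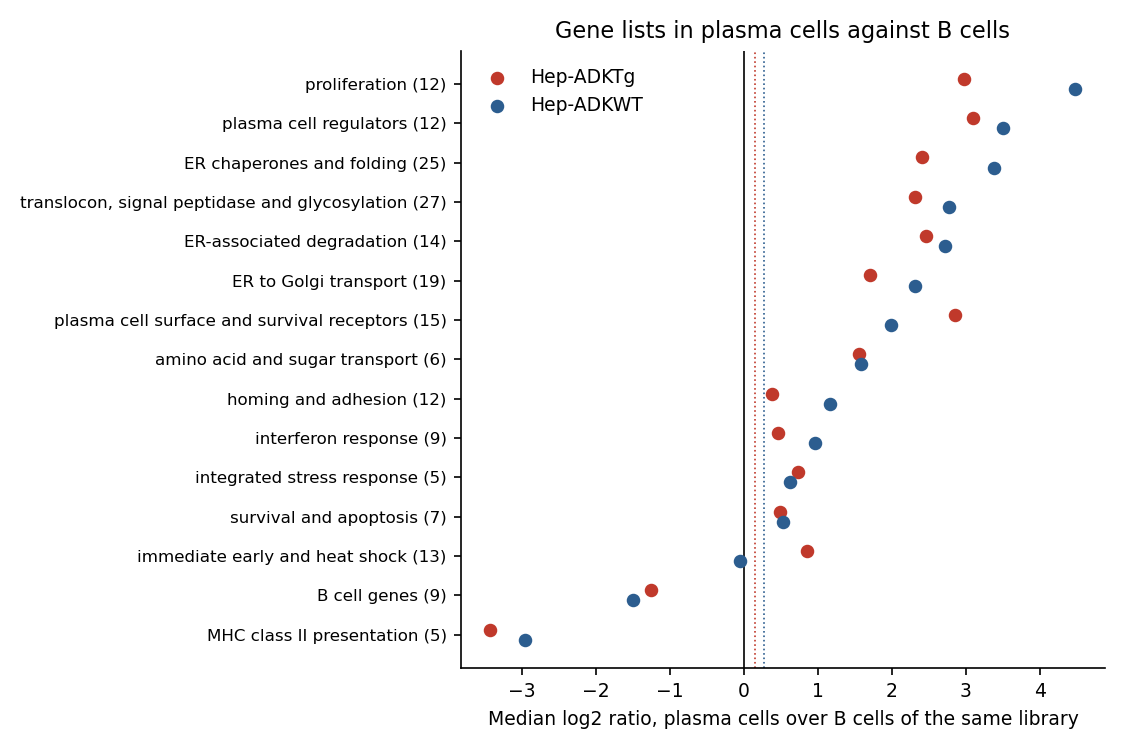
Median log2 ratio of plasma cells over B cells of the same library for each gene list, with the number of genes read in brackets and dotted lines at the median of all genes (0.16 in Hep-ADKTg, 0.27 in Hep-ADKWT). Regulator, secretory and proliferation lists lie to the right and B cell and MHC class II lists to the left in both libraries.

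B cell identity was reduced unevenly. All 5 genes read of MHC class II presentation were at least 2-fold lower than in B cells in both libraries (medians -3.42 and -2.96). H2-Aa stood at 106 CPM in Hep-ADKTg and 181 CPM in Hep-ADKWT plasma cells, against 3296 and 3923 CPM in B cells. Cd74, the invariant chain, was less reduced, at 4371 and 3568 CPM (-1.14 and -1.62). Of 9 B cell genes read, 5 were lower, among them Ebf1, a factor of early B cell identity, at -5.76 and -3.83. Cd79a, a chain of the B cell receptor, was still at 844 and 1250 CPM, with ratios of -1.25 and -1.11. The B cells were chosen in part by Cd79a, so these ratios follow in part from that choice.

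Outside the lists, the 15 genes with the highest weaker ratio of both libraries included Prg2 and Slpi beside known plasma cell genes (Tnfrsf17, Prdm1, Cd28, Bhlha15, Eaf2 and Derl3). Slpi, a secreted inhibitor of leukocyte proteases, stood at 2402 CPM in Hep-ADKTg and 1966 CPM in Hep-ADKWT plasma cells, against 3.33 and 22.5 CPM in B cells. It had a UMI in 14 of 20 and 33 of 69 cells, and a single cell held 133 of 521 UMIs in Hep-ADKTg and 325 of 1562 in Hep-ADKWT. The others were Pycr1, Pclaf, Oosp1, Cacna1h, Gpr160, a and Kcnmb4os2. The 15 lowest were led by H2-Aa, Ebf1, Btg1, Cd37 and H2-DMa.

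IgA-dominant plasma cells were then set against those of other classes within each library, without the 12 cells rich in another type's transcripts. There were 7 IgA and 10 other cells in Hep-ADKTg and 50 IgA and 10 other cells in Hep-ADKWT, so 1 cell can weigh heavily in a sum. Tnfrsf17 was higher in IgA cells of both libraries, at 639 CPM against 280 CPM in the others in Hep-ADKTg and 831 CPM against 193 CPM in Hep-ADKWT. Epcam was too, at 282 CPM against 81.6 CPM and 193 CPM against 70.3 CPM. It had a UMI in 7 of 7 IgA and 2 of 10 other Hep-ADKTg cells, and in 33 of 50 and 4 of 10 Hep-ADKWT cells. Itga4, the alpha 4 integrin chain, was at 312 CPM against 152 CPM in Hep-ADKTg and 807 CPM against 211 CPM in Hep-ADKWT. Klf2, a transcription factor of lymphocyte trafficking, was at 732 CPM against 141 CPM in Hep-ADKWT. In Hep-ADKTg it was at 595 CPM (40 UMIs, most of them in 1 cell) against 2 UMIs. IgA cells were the higher in both libraries for these 4 genes, and also with the 12 cells included, where Itga4 in Hep-ADKTg was at 180 CPM against 149 CPM.

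Others differed by class in Hep-ADKWT. Ccr10, the receptor for the mucosal chemokines Ccl27 and Ccl28, had 118 UMIs over the 50 IgA cells and 0 over the 10 others, which allow a level of 3 UMIs. Over all 69 cells it had 148 UMIs (208 CPM) in IgA cells and 5 UMIs, all in 1 cell, in the others. In Hep-ADKTg it had 7 UMIs in IgA cells and 1 in the others over all 20 cells. Itgb7, which pairs with Itga4 in the gut-homing integrin, was at 463 CPM in IgA cells and 211 CPM in the others. In Hep-ADKTg Itgb7 was at 164 CPM in IgA cells and 128 CPM in the others, 11 UMIs in each, and over all 20 cells at 94.4 CPM and 120 CPM. Cd74 was lower in IgA cells, at 4445 CPM against 6692 CPM in Hep-ADKTg and 3612 CPM against 9247 CPM in Hep-ADKWT. Ly6a (Sca-1), an interferon-inducible surface protein of lymphocytes, was at 1026 CPM in Hep-ADKWT IgA cells and 3885 CPM in the others, and at 4861 CPM and 3521 CPM in Hep-ADKTg. With the 12 cells included it was at 2808 CPM in IgA cells and 3147 CPM in the others in Hep-ADKTg, and at 767 CPM and 2899 CPM in Hep-ADKWT. Its order by class in Hep-ADKTg thus depended on these cells, and Hep-ADKWT IgA cells had the lowest level either way. Cd28 had opposite orders in the libraries with and without the 12 cells, at 59.5 CPM (4 UMIs) in Hep-ADKTg IgA cells against 198 CPM in the others, and at 213 CPM against 141 CPM in Hep-ADKWT.

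**Figure D4:**
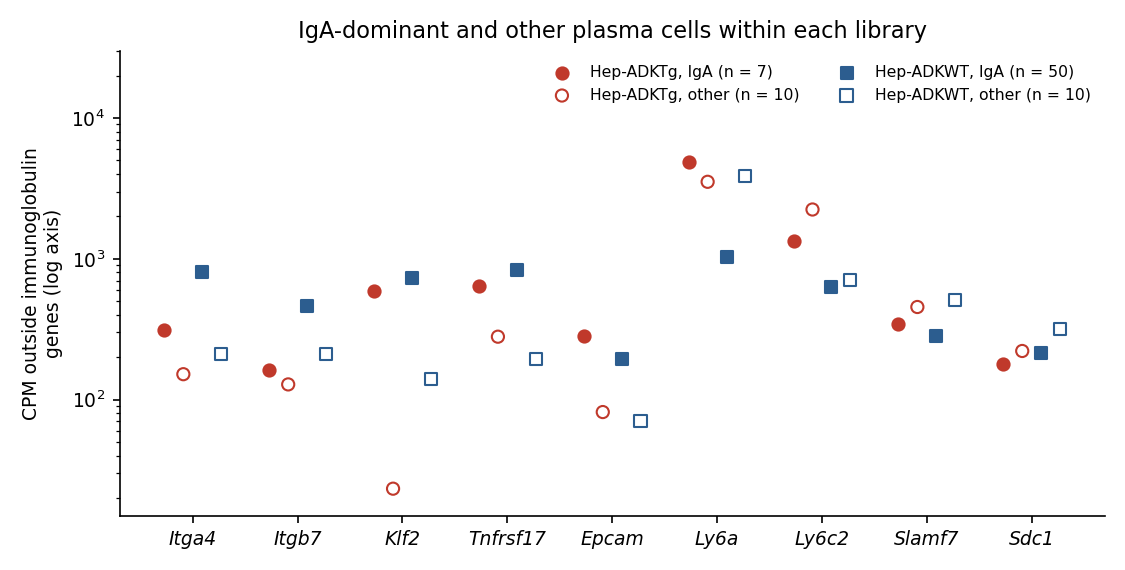
Summed level of 9 genes in IgA-dominant (filled) and other (open) plasma cells of each library, in CPM of UMIs outside immunoglobulin genes on a log axis, without cells rich in another type's transcripts. Itga4, Klf2, Tnfrsf17 and Epcam are higher in IgA cells of both libraries, and the lowest Ly6a level of these 4 sets is that of Hep-ADKWT IgA cells.

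Between the genotypes, 4011 genes were read with at least 30 UMIs over both libraries. Of these, 325 (8.1%) were at least 2-fold higher in Hep-ADKTg plasma cells and 503 (12.5%) at least 2-fold lower, with a median log2 ratio of -0.13. These counts come from sampling of 20 and 69 cells and are no count of genes that differ between genotypes. The balance depended on the setting: without the 12 cells rich in another type's transcripts 146 were higher and 335 lower, after subtraction of a hepatocyte profile 190 and 478, in IgA cells alone 316 and 758 (109 and 400 without such cells), and in the other cells 73 and 33 (53 and 21). Ratios below are log2 of Hep-ADKTg over Hep-ADKWT plasma cells.

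Homing and adhesion genes were mostly lower in Hep-ADKTg plasma cells. Of 13 read, 7 were at least 2-fold lower in Hep-ADKTg and 0 higher, with a median of -1.38. Itga4 (chromosome 2, 79255426 to 79333123) had 36 UMIs or 166 CPM (116 to 230 CPM) in Hep-ADKTg and 486 UMIs or 612 CPM (558 to 668.5 CPM) in Hep-ADKWT, a ratio of -1.88 (-2.41 to -1.39). Itgb7 (chromosome 15, 102215995 to 102231944) had 106 CPM and 391 CPM, a ratio of -1.88 (-2.56 to -1.27). Both chains of the gut-homing integrin were thus lower in Hep-ADKTg, with intervals apart. Ccr10 (chromosome 11, 101172997 to 101175443) had 8 UMIs or 36.9 CPM in Hep-ADKTg and 153 UMIs or 193 CPM in Hep-ADKWT, a ratio of -2.38 (-3.62 to -1.37). It had a UMI in 25% of Hep-ADKTg and 56.5% of Hep-ADKWT cells, and in 10.0% and 13.4% when each cell was thinned to 1000 UMIs, against 0.187% and 0.240% of T cells. At the thinned depth the shares are too close to separate.

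Klf2 was lower by a ratio of -1.43 (-1.91 to -0.98), with 207.5 CPM in Hep-ADKTg and 559 CPM in Hep-ADKWT, and 1 cell held 24 of the 45 Hep-ADKTg UMIs. Cd44, a hyaluronan receptor, had 120 CPM and 312 CPM (-1.38). S1pr4, a sphingosine phosphate receptor, had 0 UMIs in Hep-ADKTg and 50 in Hep-ADKWT, and Cxcr3, the receptor for Cxcl9 and Cxcl10, 0 and 40. S1pr1 was level at 41.5 CPM in both. Cxcr4, the receptor for Cxcl12 that holds plasma cells in bone marrow, went the other way with 16 UMIs or 73.8 CPM in Hep-ADKTg and 7 UMIs or 8.81 CPM in Hep-ADKWT, a ratio of 3.07 (1.70 to 4.59). It had too few UMIs to enter the counts over the list.

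Because these genes followed class, the ratios were also taken within it. In IgA cells alone, Itga4 had a ratio of -1.87, Itgb7 -2.12, Ccr10 -1.79 and Klf2 -0.83. Without the 12 cells rich in another type's transcripts the IgA ratios were -1.37, -1.50, -1.19 and -0.30. In the other cells, Itga4 had -0.30, Itgb7 -0.96 and Klf2 -1.30, and without the 12 cells -0.48, -0.72 and -2.59, the last from 2 and 8 UMIs. Ccr10 had 1 UMI in the other cells of Hep-ADKTg and 5 UMIs, all in 1 cell, in those of Hep-ADKWT, too few for a ratio to be read. The integrin chains were thus lower in Hep-ADKTg IgA cells with and without the 12 cells, by less without them. Klf2 in IgA cells was near level without the 12 cells, with most of its Hep-ADKTg UMIs in 1 cell. Over all classes without the 12 cells the list median was -1.04, with Ccr10 at -2.03, Itga4 at -1.75 and Itgb7 at -1.60. How much of the overall difference comes from the share of IgA cells was not tested.

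The Ly6 family genes Ly6a, Ly6c2 and Ly6d were higher in Hep-ADKTg. Ly6a had 643 UMIs or 2965 CPM in Hep-ADKTg and 784 UMIs or 987 CPM in Hep-ADKWT, a ratio of 1.59 (1.43 to 1.74). Ly6c2 had 1309 CPM and 489.5 CPM (1.42), and Ly6d, a lymphoid marker, 1678 CPM and 510 CPM (1.72). In IgA cells alone the ratios were 1.87, 0.72 and 1.95, and in the other cells 0.12 for Ly6a, 1.76 for Ly6c2 and 0.14 for Ly6d. Without the 12 cells rich in another type's transcripts they were 2.24, 1.08 and 2.38 in IgA cells, and -0.14, 1.67 and 0.22 in the others. Ly6a and Ly6d were thus higher in Hep-ADKTg among IgA cells and near level among the rest, and Ly6c2 was higher in both. In Hep-ADKTg 1 cell held 221 of the Ly6a UMIs, and in each library 1 cell held over 100 of the Ly6c2 UMIs (121 and 173). These genes lie close together on chromosome 15 and are similar in sequence, so reads of one may be assigned to another. Tnfrsf17 was lower in Hep-ADKTg, at 314 CPM (244 to 398 CPM) and 590 CPM (538 to 646 CPM), a ratio of -0.91 (-1.30 to -0.54). It was -0.80 in IgA cells and 0.76 in the others, and -0.38 and 0.53 without the 12 cells, so the other classes did not share the direction of all cells. Cd274 (PD-L1) had 8 and 107 UMIs, a ratio of -1.87.

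Immediate early genes, which respond to stimulation and to tissue dissociation, were higher in Hep-ADKTg. Of 13 genes read in the immediate early and heat shock list, 5 were at least 2-fold higher and 0 lower, with a median of 0.59. Egr1 had 29 UMIs or 134 CPM in Hep-ADKTg and 19 UMIs or 23.9 CPM in Hep-ADKWT, a ratio of 2.48 (1.60 to 3.40). Junb had 355 CPM and 76.8 CPM (2.21), Fos 590 CPM and 250 CPM (1.24) and Fosb 346 CPM and 170 CPM (1.03). Jund, of the same family, had 1065 CPM and 1174 CPM (-0.14). In B cells the same genes did not show this gap, with Egr1 at 24.5 CPM in Hep-ADKTg and 24.7 CPM in Hep-ADKWT, Junb at 197 and 251 CPM and Fos at 77.6 and 62.7 CPM. Hspa1b had 16 UMIs in Hep-ADKTg, in 2 cells, and 0 in Hep-ADKWT. In IgA cells alone the list median was -0.26, with Egr1 at 2.96, Junb at 1.61 and Jun at 0.92. Without the 12 cells rich in another type's transcripts it was 0.07 in IgA cells, with the 3 genes at 3.42, 2.18 and 1.28. In the other classes the median was 0.82, with Egr1 at 0.61, Junb at 1.40 and Jun at -0.48. Without the 12 cells the median there was 0.51, with the 3 genes at 0.11, 1.05 and -1.02. Egr1 was thus near level in the other classes without the 12 cells.

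Secretory genes were modestly lower in Hep-ADKTg. Among 25 chaperones and folding enzymes, 6 were higher and 19 lower, 2 of them at least 2-fold, with a median of -0.49. Hspa5 had 1462 CPM (1305 to 1632 CPM) in Hep-ADKTg and 2334 CPM (2229 to 2443 CPM) in Hep-ADKWT, a ratio of -0.68 (-0.85 to -0.50). Hsp90b1 was at -0.67, Manf at -0.87 and Creld2 at -1.06 (-1.42 to -0.72). The 27 translocon genes had a median of -0.38, with 25 lower and 0 at least 2-fold lower. Over all 4011 genes read, 2336 were lower and the median was -0.13. Hepatocyte-derived UMIs were an estimated 11.5% of all plasma cell UMIs in Hep-ADKTg and 4.89% in Hep-ADKWT. They enter the total to which CPM is scaled, and how much of these medians follows from that was not tested. Herpud1, a stress-induced degradation factor, was an exception in its list, at 848 CPM and 532 CPM (0.67). The chaperone median was -0.95 in IgA cells and -0.03 in the others, and -0.80 and 0.14 without the 12 cells rich in another type's transcripts. With the left-out barcodes added it was 0.11, so it depends on which barcodes count as plasma cells. Of the 12 regulators, 0 differed 2-fold, with Xbp1 at -0.40 (-0.55 to -0.25) and Prdm1 at 0.09 (-0.45 to 0.59).

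**Figure D5:**
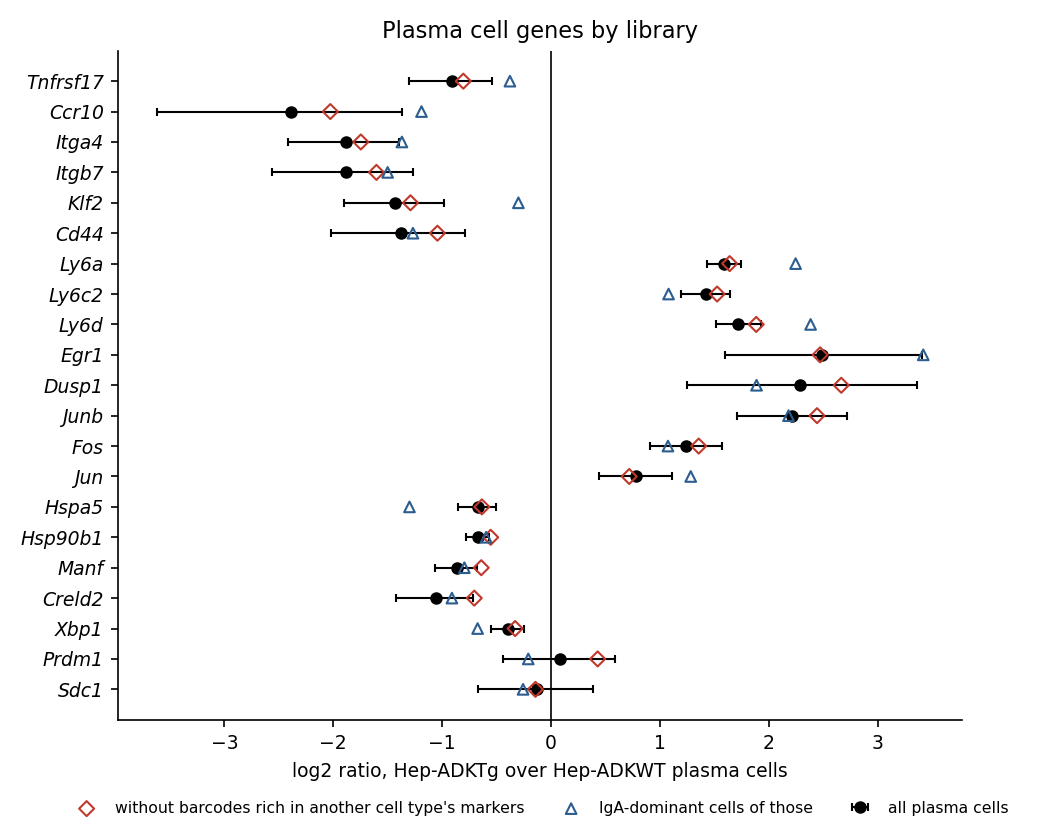
Log2 ratio of Hep-ADKTg over Hep-ADKWT for plasma cell genes, with exact 95% counting intervals on the value of all plasma cells (black), the value without cells rich in another type's transcripts (red diamonds) and the value in the IgA cells of that smaller set (blue triangles). The 5 plotted homing genes (Ccr10, Itga4, Itgb7, Klf2 and Cd44) lie left of 0 and the 3 plotted Ly6 genes and 5 plotted immediate early genes right of it in all 3 versions; Cxcr4, at 3.07, and Jund, at -0.14, are not plotted.

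Proliferation genes rested on a few cells. All 14 genes read were lower in Hep-ADKTg, 9 of them at least 2-fold, with a median of -1.23. Their 164 UMIs in Hep-ADKTg came to 71.3% from 1 IgM cell, and 59.4% of the 1442 UMIs in Hep-ADKWT from 3 cells. At least 2000 CPM of the list was found in 1 of 20 Hep-ADKTg cells (5.00%) and 7 of 69 Hep-ADKWT cells (10.1%), all 7 of them IgA. Without the 12 cells rich in another type's transcripts the median turned to 0.53. Mki67, the standard proliferation marker, had a UMI in 20% and 37.7% of cells and in 5.00% and 4.48% after thinning, so no direction can be read. Plasma cell barcodes with many proliferation transcripts were thus present in both libraries at low and uncertain numbers. In Hep-ADKWT IgA cells Mki67 was at 159 CPM, and at 58.3 CPM without cells rich in another type's transcripts. Whether the proliferation transcripts came from the plasma cell or from another cell in the droplet was not tested.

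Of the 10 genes with the highest ratio outside hepatocyte-derived transcripts, Prg2 was the most abundant. Prg2, the major basic protein best known from eosinophil granules, had 198 UMIs or 913 CPM (790 to 1049 CPM) in Hep-ADKTg and 114 UMIs or 143.5 CPM (118 to 172 CPM) in Hep-ADKWT, a ratio of 2.67 (2.33 to 3.02). It was in 15 of 20 and 25 of 69 cells, and 1 Hep-ADKTg cell held 93 of the UMIs. Its B cell levels were 0 and 0.268 CPM. The others were Hspb1, Chst1, Serpina3g, Prlr, Dusp1, Tns3, Mt2, Junb and Ly6k, with ratios of 2.07 to 3.40 and at most 77 UMIs each in Hep-ADKTg. Ly6k came almost wholly from 3 cells.

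Of the 10 lowest, Lgals3 (galectin-3) had 1 UMI in Hep-ADKTg and 147 UMIs over 30 cells in Hep-ADKWT, a ratio of -5.33 (-10.64 to -2.83). Zbtb32, a transcriptional repressor of B lineage responses, had 1 and 53 UMIs (-3.85, interval -9.18 to -1.31). Gzma, a T and NK cell gene, had 1 and 76 UMIs, and 1 Hep-ADKWT cell held 51 of them. The others were Ube2c, Ccdc88c, Ripor2, Cenpw, Gimap3, Fmnl1 and Def6, each with 1 or 2 UMIs in Hep-ADKTg and 33 to 127 in Hep-ADKWT. The ratios of all 10 are uncertain by several log2 units.

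Survival and stress genes gave mixed values. Bcl2 had 30 UMIs or 138 CPM in Hep-ADKTg and 42 UMIs or 52.9 CPM in Hep-ADKWT, a ratio of 1.39 (0.66 to 2.10), which was -0.43 in IgA cells and 1.23 in the others, and 0.08 and 0.80 without the 12 cells rich in another type's transcripts. Mcl1, the survival factor downstream of BCMA, was level at 456 CPM and 479.5 CPM (-0.07). Ppp1r15a and Cebpb of the integrated stress response were at 1.15 and 1.04, and Atf4 at -0.15. Of 9 interferon genes read, Isg15 had 5 and 112 UMIs (-2.61) and Ifi27l2a 664 CPM and 1316 CPM (-0.99). By class Ifi27l2a turned round, at -1.71 in IgA cells and 1.72 in the others, and at -1.10 and 1.34 without the 12 cells. The medians of the survival and interferon lists were -0.07 and 0.02.

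Adk itself (chromosome 14, 21052574 to 21448569) had 42 UMIs or 194 CPM in Hep-ADKTg and 78 UMIs or 98.2 CPM in Hep-ADKWT plasma cells, a ratio of 0.98 (0.40 to 1.54). B cells gave 126 and 36.1 CPM. An estimated 64.9% of the Hep-ADKTg UMIs could come from the hepatocyte transcripts in these barcodes, going by the hepatocyte list, and 1 cell held 19 of the 42. By class, the Adk ratio in plasma cells was 1.24 in IgA cells and -0.13 in the others. Without cells rich in another type's transcripts it was 0.75 over all classes, 0.25 in IgA cells and -0.11 in the others. The higher Adk level in Hep-ADKTg thus depended on class and on these cells. The other 6 genes read of adenosine and purine handling were lower in Hep-ADKTg, none of them 2-fold, and the list median was -0.24.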

How the data were processed

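Values used are the UMI counts that the authors deposited, integers in a gene by barcode matrix per the file headers. Reads were processed with Cell Ranger 6.1.2 and GRCm38/mm10, with Seurat 4.0.2 and R 4.1.0 also named, per the submitters' processing notes; the matrix headers name another Cell Ranger release. The series text speaks of ambient RNA removal and integration, but the deposited counts are whole numbers and were treated as uncorrected. Their order is not stated in these sources.

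A barcode was kept if it held 500 or more UMIs from 200 or more genes and no more than 20% mitochondrial UMIs, and plasma cells were chosen by the UMI rule given above. Doublets were scored with Scrublet (scanpy 1.11.5) and kept; a score above 0.2 was an alternative. UMIs were summed over cells and scaled to CPM of UMIs outside immunoglobulin genes and Jchain. Exact Poisson intervals go with CPM, Clopper-Pearson intervals with shares and conditional binomial intervals with ratios; a library at 0 was set to a floor of 3 counts in ratios. UMIs share cells, so these cover counting error only. Genes needed 30 UMIs over the plasma cells of both libraries to enter counts, also in the comparison with B cells. With 1 library per group no test was run. B cells had to hold Ms4a1 and Cd79a, at most 1 Jchain UMI and no Siglech or Cd3 UMI. T cells and hepatocyte barcodes were chosen by marker UMIs.

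The members, the gene lists and the rules were chosen with earlier results of these data known. All list genes could be named; in addition, the rule named the 10 highest and 10 lowest genes between libraries and the 15 highest and lowest against B cells, by the weaker library, among genes with a UMI in at least 10% of cells. It left out predicted, mitochondrial, ribosomal, haemoglobin, immunoglobulin and hepatocyte genes and those with an estimated hepatocyte share of 30% or more. Settings without the lineage conditions, without cells rich in another type's transcripts, within class (with and without those cells), and the Ptprc and B cell denominators were chosen after seeing the data. Coordinates are from GENCODE on GRCm38. The scripts were checked on simulated counts and ran in Python 3.11.15 with numpy 2.4.6, scipy 1.17.1, pandas 2.3.3 and matplotlib 3.10.9; TMM factors (1.01 for Hep-ADKTg, 0.988 for Hep-ADKWT), an alternative, came from edgeR 4.0.16 in R 4.3.3 and entered no test.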

Additional observations from a re-analysis of the deposited data

How the results depend on the processing

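No paired analysis was possible because each group has 1 library, and for the same reason no replicate could be left out. The share of IgA cells in Hep-ADKTg minus Hep-ADKWT was -44.1 percentage points and stayed between -48.9 and -42.2 over 12 alternatives; that of IgM cells was 44.2 and stayed between 39.2 and 46.7. The IgG difference was -0.14 and ran from -0.45 to 6.49. The immunoglobulin share differed by 3.85 points (1.73 to 12.3 over 11 alternatives). The ratio of plasma cell shares was 0.253, and it was 0.493 among immune barcodes, 0.504 among barcodes under 5% hepatocyte transcripts, 0.453 among Ptprc barcodes and 0.495 against B cells.

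Counts of genes at least 2-fold higher and lower in Hep-ADKTg, 325 and 503, moved most. They were 205 higher at a limit of 10% mitochondrial UMIs, 578 and 1084 without the Ms4a1, Siglech and Cd3 conditions, 146 and 335 without cells rich in another type's transcripts, 30 and 49 with cells thinned to 1000 UMIs, 190 higher after hepatocyte subtraction, 95 and 122 at a minimum of 100 UMIs, 870 and 1225 at 10 UMIs, 758 lower in IgA cells (109 higher without cells rich in another type's transcripts), and 73 and 33 in other cells (53 and 21 without such cells). Fewer genes or cells enter several of these. Against B cells, 605 higher and 205 lower became 245 and 1190 as CPM of all UMIs and 320 and 46 at 100 UMIs.

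Some ratios reported as at least 2-fold turned round, and the cause was not tested. Creld2 was 0.55 and Bcl2 -0.18 without the lineage conditions. Without cells rich in another type's transcripts Top2a and the proliferation median were both 0.53. As a mean of per-cell CPM, Ly6k was -0.77, Top2a 0.25 and the proliferation median 0.040. Thinned, Ly6k and Bcl2 were both -0.84. In IgA cells Ly6k was -0.19 and Bcl2 -0.43. In other cells Chst1 was -1.03, Top2a 1.44, and Hmgb2 and the proliferation median 2.11; without cells rich in another type's transcripts they were -1.59, 1.14 and 3.58, with Mt2 at -0.33 and Ly6a at -0.14. Over all alternatives, single-gene ratios and the counts per list against B cells were tallied together. Of these, 1222 stayed, 269 moved and 17 reversed. A ratio stayed if it was inside the counting interval of its reported value, and a count if within a fixed factor of the reported count. Of the list medians, 288 stayed between the quartiles of the list's reported ratios, 59 moved outside them and 4 reversed. Only reported ratios of at least 2-fold could count as reversed. Sign changes of smaller ratios are among those that stayed or moved. Mki67, reported at -0.80, thus ran from -4.21 to 3.49 with 0 reversals counted. With 20 Hep-ADKTg cells, genes with 1 or 2 UMIs there have intervals of several log2 units.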

Other observations

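The rest of the kept barcodes expressed ligands of the receptors described above. Tnfsf13, which encodes APRIL, the ligand of BCMA, stood at 7.18 CPM of all UMIs in the Hep-ADKTg and 9.80 CPM in the Hep-ADKWT library. Tnfsf13b (BAFF) stood at 1.40 and 2.36 CPM and Il6 at 0.164 and 1.23 CPM. Of the chemokines, Cxcl12 stood at 80.8 and 17.4 CPM, Cxcl9 at 30.4 and 42.7 CPM, Cxcl10 at 17.4 and 29.8 CPM and Ccl25 at 6.36 and 10.1 CPM. Pigr, the receptor that carries polymeric IgA and IgM across epithelial cells, stood at 470.7 and 70.8 CPM, in libraries with 2811 and 166 hepatocyte barcodes. Vcam1, a ligand of the Itga4 integrins, stood at 18.6 and 11.5 CPM. Ccl28, the ligand of Ccr10, had 1 and 2 UMIs, and Madcam1, the ligand of the integrin of Itga4 and Itgb7, had 1 and 0. These levels follow the cell makeup of each library, which differed, and their part in the plasma cell values was not tested.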
